A study of Mus musculus with 3 samples.

Results

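Epcam, Cdh1, Cldn1, Cldn3, Cldn4 and Cldn7 encode proteins of epithelial cell contacts, and their RNA was followed across the epithelial subtypes of cultured mouse thymus. The 6 genes were chosen by symbol, as the epithelial adhesion and claudin genes of interest, from the 32285 genes of the count matrix. RNA of single cells was counted in 1 droplet library with unique molecular identifiers (UMIs), which held 2 pools told apart by antibody hashtags. The ORFTOC pool (organoid reaggregate fetal thymic organ culture) held reaggregates of thymic epithelial cells (TECs) that had first grown as organoids, EpCAM-depleted cells of fetal thymus and mouse embryonic fibroblasts. The FTOC pool (fetal thymic organ culture) held intact fetal thymic lobes. Per the study's methods, the organoid TECs came from fetuses of a later embryonic day than the lobes and the EpCAM-depleted cells, so the age of the epithelium at its isolation cannot be told apart from the culture. The thymic cells of both pools came from C57BL/6J wild-type mice, and the study's methods call the fibroblasts wild-type without naming a strain. Both pools were kept in the same medium with FGF7 and were taken at culture day 13, and each pool mixed 2 cultures. Each pool is therefore 1 sample, so no test between ORFTOC and FTOC was possible, and the 95% intervals given below cover counting error only.

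After filtering, 8392 cells remained, 4242 of ORFTOC with 42756137 UMIs and 4150 of FTOC with 29276985 UMIs. Of these, 2207 cells were epithelial by their clusters (1240 ORFTOC and 967 FTOC cells), with a median of 13339 UMIs per cell in ORFTOC and 12140 in FTOC. The keratin genes Krt8 and Krt18 together reached 5888 CPM (a gene's UMIs as a parts-per-million share of all UMIs of the group) in the epithelial cells and 86.3 CPM in the 5924 immune cells. Epithelial cells were taken as whole clusters, not by a threshold on Epcam RNA, and the 6 genes and the other junction genes named below were kept out of the clustering. ORFTOC epithelium descended from cells sorted for EpCAM protein and the other thymic cells of ORFTOC were depleted of it, while the FTOC lobes were not sorted before culture. UMIs of Y-linked genes were seen in 607 of 1240 ORFTOC and in 6 of 967 FTOC epithelial cells, so the pools also differed in the sex of the embryos.

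EpCAM is a cell surface adhesion protein and the usual sorting marker of TECs; it associates with claudin 7 at the lateral membrane. E-cadherin, the product of Cdh1, holds neighbouring epithelial cells together at adherens junctions and binds catenins inside the cell. Claudins are membrane proteins of the tight junction, where they set the permeability of the space between cells, and claudins 3 and 4 are known in the fetal thymus as markers of early medullary epithelium.

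In the GRCm38 build, Epcam (ENSMUSG00000045394) lies on chromosome 17 from 87635979 to 87651127, Cdh1 (ENSMUSG00000000303) on chromosome 8 from 106603350 to 106670247, and Cldn1 (ENSMUSG00000022512) on chromosome 16 from 26356645 to 26371839. Cldn7 (ENSMUSG00000018569) lies on chromosome 11 from 69964779 to 69967886. Cldn4 (ENSMUSG00000047501, 134945123 to 134946934) and Cldn3 (ENSMUSG00000070473, 134986214 to 134987476) are neighbours on chromosome 5. They are transcribed away from each other, their start sites are 39280 bases apart, and 0 RefSeq genes lie wholly between them. The promoter sequences of Epcam and of the 3 claudins that varied together are shown because Epcam was read in nearly every epithelial cell and the claudins in few subtypes. Each is the 250 bases before the start site, 5′ to 3′ on the strand of the gene, from RefSeq on GRCm38.p6, and capitals mark matches on either strand to 1 of 5 motifs. These were the E-box CAGGTG, bound by repressors such as Snail and Slug (17.2% of 32851 promoter windows of this length), the GC box GGGCGG (32.7%), the ETS core AGGAAG (29.5%), the TATA box TATAAA (12.4%) and the Grainyhead-like motif AACCNGTT (1.79%).
Epcam, chr17:87635729-87635978, + strand: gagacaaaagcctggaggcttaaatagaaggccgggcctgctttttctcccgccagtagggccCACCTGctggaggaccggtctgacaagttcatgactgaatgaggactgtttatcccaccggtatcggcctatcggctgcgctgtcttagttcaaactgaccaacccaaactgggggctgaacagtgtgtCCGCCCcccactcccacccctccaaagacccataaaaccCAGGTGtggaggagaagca
Cldn3, chr5:134985964-134986213, + strand: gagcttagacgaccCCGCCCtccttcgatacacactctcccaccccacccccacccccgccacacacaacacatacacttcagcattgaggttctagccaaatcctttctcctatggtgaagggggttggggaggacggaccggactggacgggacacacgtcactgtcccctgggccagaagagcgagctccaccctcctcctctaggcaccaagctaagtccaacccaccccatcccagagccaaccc
Cldn4, chr5:134946935-134947184, - strand: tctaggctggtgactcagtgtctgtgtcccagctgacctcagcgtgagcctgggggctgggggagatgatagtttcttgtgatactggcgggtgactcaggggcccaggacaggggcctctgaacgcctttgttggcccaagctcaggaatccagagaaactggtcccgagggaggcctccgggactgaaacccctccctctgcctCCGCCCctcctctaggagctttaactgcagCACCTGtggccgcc
Cldn7, chr11:69964529-69964778, + strand: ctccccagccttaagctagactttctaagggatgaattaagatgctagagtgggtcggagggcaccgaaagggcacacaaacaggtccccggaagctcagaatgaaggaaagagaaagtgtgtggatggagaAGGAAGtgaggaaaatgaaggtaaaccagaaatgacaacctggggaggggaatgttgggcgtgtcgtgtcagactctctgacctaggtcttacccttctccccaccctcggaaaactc

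The Epcam window held 2 E-boxes and 1 GC box, the Cldn4 window 1 E-box and 1 GC box, the Cldn3 window 1 GC box and the printed Cldn7 window 1 ETS core. RefSeq gives Cldn7 a second start, and its window (chr11:69965171-69965420), not printed, held 2 E-boxes, 1 GC box and 2 ETS cores and was 60% G and C. The Cldn1 window, not printed, held 2 GC boxes. The TATA box and the Grainyhead-like letters had 0 matches in these 6 windows. The windows of Cldn4 and Cldn3 were 62% and 60.8% G and C, that of Epcam 56.4% and the printed one of Cldn7 51.2%, beside a median of 52.4% over all windows. A match is a description of the letters and shows no binding.

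The epithelial cells formed 9 clusters, which are described here by their leading genes. Cluster 1 was Ccl21a mTEC-like (598 cells; Rgs5, Krt14, Ccl11), cluster 2 airway-like (441 cells; Bpifa1, Reg3g, Hp), cluster 5 cTEC-like (290 cells; Tbata, Psmb11, Ccl25) and cluster 6 Aire mTEC-like (100 cells; Calcb, Psors1c2, Wfdc21). Cluster 8 was ionocyte-like (43 cells; Foxi2, Iapp, Foxi1) and cluster 9 tuft-like (25 cells; Gnat3, Gng13, Lrmp). Clusters 3 (338 cells; Igfbp2, Ndrg1, Ndufa4l2) and 4 (291 cells; Lypd1, Ms4a10, Prss23) stayed unnamed, as did cluster 7 (81 cells), which was led by the thymocyte genes Ms4a4b, Cd3d and Coro1a. The summed level of Cd3e, Cd3d, Cd8a and Ptprc was 800 CPM in cluster 7 and 10.04 to 82.1 CPM in the other 8 clusters.

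Epcam RNA was present throughout the epithelium, with at least 1 UMI in 98.96% of epithelial cells and a median of 13 UMIs per cell. Its level was highest in the airway-like cluster at 1588 CPM (1554 to 1623), followed by cluster 3 at 1335 CPM (1298 to 1372), whose interval overlapped those of the ionocyte-like and tuft-like clusters. The ionocyte-like cluster at 1223 CPM (1140 to 1310), the tuft-like cluster at 1220 CPM and the Ccl21a mTEC-like cluster at 1210 CPM (1186 to 1233) were within counting error of each other. Cluster 4 had 1129 CPM (1095 to 1165), below the Ccl21a mTEC-like interval. Cluster 7 at 899 CPM (847 to 953) and the Aire mTEC-like cluster at 845 CPM (805 to 886) had overlapping intervals. The cTEC-like cluster stood last at 678 CPM (654 to 702), so that from highest to lowest Epcam spanned a narrow range beside the claudins.

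Cdh1 RNA was also broad, with a UMI in 86.5% of epithelial cells and a median of 3 UMIs per cell. The airway-like cluster was again highest, at 405 CPM (388 to 423). The ionocyte-like (268 CPM, 230 to 310), cTEC-like (258 CPM) and unnamed cluster 4 (251 CPM, 235 to 268) followed within counting error of each other. Unlike for Epcam, the cTEC-like cluster was therefore not at the low end for Cdh1. The Ccl21a mTEC-like cluster had 221 CPM (211 to 231), cluster 7 had 194 CPM and the tuft-like cluster 186 CPM, with overlapping intervals. Cluster 3 with 154 CPM (142 to 167) and the Aire mTEC-like cluster with 96.4 CPM (83.4 to 111) were lowest.

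Cldn3, Cldn4 and Cldn7 were restricted to part of the epithelium. Cldn3 had 396 CPM (379 to 413) in the airway-like cluster, where 76.0% of cells held a UMI, then 137 CPM in the ionocyte-like, 92.9 CPM in the tuft-like and 88.0 CPM in the Aire mTEC-like cluster. For Cldn3 the tuft-like interval overlapped those of both its neighbours in this order. Cldn4 was at 984 CPM (957 to 1011) in the airway-like cluster, in 89.1% of its cells, and at 304 CPM (264 to 349) in the ionocyte-like cluster. Cldn4 in cluster 7 (142 CPM, 122 to 164) came next by summed UMIs. A single ORFTOC cell held 55 of the 179 Cldn4 UMIs of cluster 7, whose median cell held 0. The level without that cell was not computed over both pools, so the place of cluster 7 in this order is not settled. The Aire mTEC-like (101.4 CPM) and tuft-like (100.4 CPM) clusters did not differ beyond counting error. A single tuft-like cell held 18 of the 40 tuft-like Cldn4 UMIs.

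Cldn7 followed another order, with the tuft-like cluster first at 909 CPM (817 to 1007) and a UMI in 100% of its 25 cells. The airway-like cluster (519 CPM, 500 to 539) and the ionocyte-like cluster (475 CPM, 423 to 530) had overlapping intervals for Cldn7, and the Aire mTEC-like cluster had 188 CPM (170 to 208). In the Ccl21a mTEC-like, cTEC-like and unnamed clusters 3 and 4 the 3 claudins were low, at 0.649 to 4.15 CPM for Cldn3, 0.571 to 14.2 CPM for Cldn4 and 1.43 to 12.9 CPM for Cldn7. Barcodes of 10 to 100 UMIs, which hold mostly free RNA, had 11.8 CPM of Cldn3, 20.1 CPM of Cldn4 and 24.9 CPM of Cldn7. In those 4 clusters each claudin had fewer CPM than this, pools combined. The CPM of such barcodes gives the make-up of free RNA and not the part it forms of a cell's UMIs. It therefore sets no floor for cells, and the source of the claudin UMIs in those 4 clusters was not tested.

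Cldn1 was sparse, with a UMI in 5.44% of epithelial cells. Its highest level was 22.0 CPM (18.2 to 26.4) in the airway-like cluster, in 12.7% of cells, followed by 7.14 CPM in cluster 7, 6.92 CPM in the Aire mTEC-like and 6.79 CPM in the Ccl21a mTEC-like cluster. In the remaining clusters Cldn1 had at most 1.73 CPM, and it was detected in 0 of 25 tuft-like cells, which allows a UMI in up to 12% of such cells (3 cells of the 25). Free RNA held 0.257 CPM of Cldn1, far below its airway-like level.

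**Figure D1:**
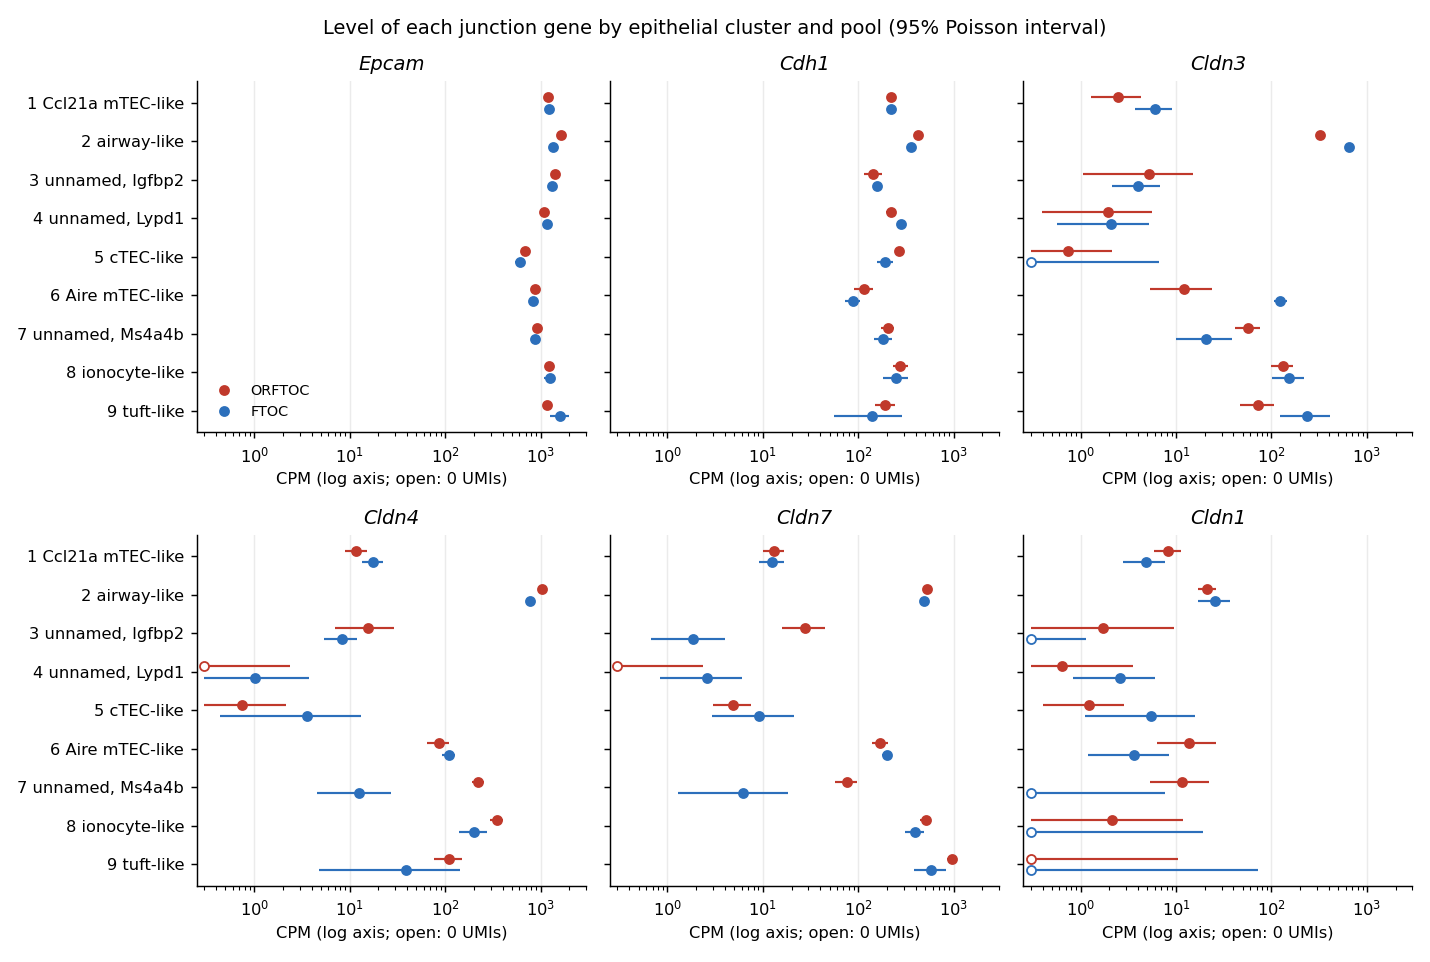
Levels of the 6 genes in each epithelial cluster of ORFTOC (red) and FTOC (blue) in CPM on a log axis, with 95% Poisson intervals and open points at 0 UMIs. Epcam and Cdh1 were read in every cluster, whereas Cldn3, Cldn4 and Cldn7 stood high in the airway-like and ionocyte-like clusters of both pools. In ORFTOC, Cldn3 was at 12.2 CPM in the Aire mTEC-like cluster and Cldn4 at 222 CPM in cluster 7.

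The distribution of each gene's UMIs over the epithelium shows the same contrast. The airway-like cluster held 20.0% of epithelial cells and 17.4% of their UMIs. It held 23.8% of Epcam and 28.9% of Cdh1 UMIs, but 54.5% of Cldn1, 68.0% of Cldn7, 83.2% of Cldn3 and 86.7% of Cldn4 UMIs.

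**Figure D2:**
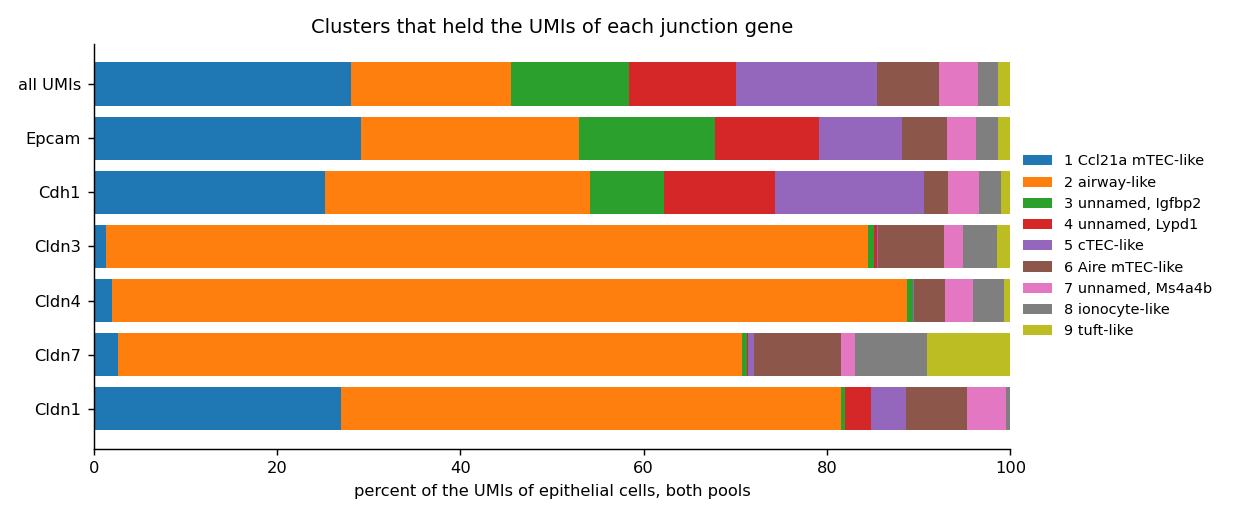
Share of each gene's epithelial UMIs (percent) held by each cluster, beside the share of all UMIs. The airway-like cluster held 86.7% of Cldn4 and 83.2% of Cldn3 UMIs, but 23.8% of Epcam UMIs.

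Set against all other epithelial cells, the airway-like cluster was higher for Cldn4 by 30.9-fold (28.7 to 33.4), for Cldn3 by 23.4-fold (21.1 to 26.1), for Cldn7 by 10.05-fold and for Cldn1 by 5.67-fold. Cdh1 was 1.92-fold and Epcam 1.48-fold higher there. Thus 5 of the 6 genes were at least 1.5-fold higher, where 17.8% of the 9784 genes that reached 10 CPM on the higher side were. The contrast was seen in each pool alone, at 27.2-fold in ORFTOC and 28.6-fold in FTOC for Cldn3, 27.9-fold and 30.7-fold for Cldn4, and 8.41-fold and 12.6-fold for Cldn7. In the cTEC-like cluster the log2 ratio to all other epithelial cells was -7.76 for Cldn4, -7.24 for Cldn3, -4.86 for Cldn7, -2.21 for Cldn1, -0.89 for Epcam and 0.09 for Cdh1. Of the 5 members that reached 10 CPM on the higher side, which leaves out Cldn1 (1.73 against 8.02 CPM), 4 were at least 1.5-fold lower, where 16.1% of 9560 genes were and 13.0% were higher. Cldn4 ranked among the 10 leading genes of the airway-like cluster, and both contrasts are between clusters of the same cells, so they are descriptions and the other-cell groups overlap.

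Across the whole epithelium, ORFTOC and FTOC had nearly the same Epcam level, 1158 and 1169 CPM (log2 ratio of ORFTOC over FTOC -0.01, -0.04 to 0.02). Cldn3 was likewise close, at 85.2 and 79.9 CPM (0.09, -0.02 to 0.21). Cdh1 was at 272 CPM in ORFTOC and 207 CPM in FTOC (0.39, 0.32 to 0.46), under the 1.5-fold limit used here. Cldn4 was higher in ORFTOC, at 273 against 93.7 CPM (1.54, 1.45 to 1.63), and so was Cldn7, at 172 against 79.0 CPM (1.12, 1.02 to 1.23). Cldn1 was at 8.72 against 4.72 CPM (0.89, 0.45 to 1.35).

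Hence 3 of the 6 genes were at least 1.5-fold higher in ORFTOC and 0 lower, beside 9.63% higher and 13.8% lower of all genes detected. For those shares counts under 3 were set to 3, and genes with at most 3 UMIs in both pools stayed in as not called. ORFTOC had more epithelial UMIs (17421304 against 12513165), so with this floor a sparse gene was called lower more readily than higher. Those shares are thus partly set by the rule and are a weak background. A minimum of 10 CPM in the pool with more of the gene leaves out Cldn1, and 2 of 5 members were then higher, beside 7.85% of 9532 genes, and 5.92% were lower. With TMM scaling these shares of genes were 8.51% and 5.53%. When cells were assigned by the ratio of their hashtag counts, which placed 1424 of 2201 epithelial cells in ORFTOC instead of 1240 of 2207, Cldn4 alone passed 1.5-fold (log2 1.06), with Cldn7 at 0.42 and Cldn1 at 0.29.

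The pools differed in their epithelial make-up. Of the ORFTOC epithelium 27.1% was airway-like, against 10.9% in FTOC, and the cTEC-like cluster made up 20.6% and 3.62%. The unnamed cluster 3 made up 3.87% and 29.99%. The Ccl21a mTEC-like cluster was near even at 27.5% and 26.6%, and the Aire mTEC-like cluster held 2.90% and 6.62%. With each cluster given the same weight in both pools, over the clusters with at least 10 cells in each, the Cldn4 ratio was 0.44 (0.34 to 0.54; 235 and 173 CPM) and that of Cldn7 0.18 (136 and 120 CPM). Cldn1 came to 0.08, Epcam to 0.09 and Cdh1 to 0.09. Cldn3 was lower in ORFTOC at equal shares, at 72.7 against 144 CPM (-0.98, -1.10 to -0.86). At equal shares 0 of the 6 genes were 1.5-fold higher, where 3.7% of 9372 genes were, and Cldn3 was 1.5-fold lower, as were 3.41% of genes. In the epithelial cells with a UMI of Xist and none of the Y-linked genes, an alternative chosen after seeing the data, Cldn4 over all cells was at 1.65, Cldn7 at 1.08 and Cldn3 at -0.064, and Cldn3 at equal shares was at -1.23.

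**Figure D3:**
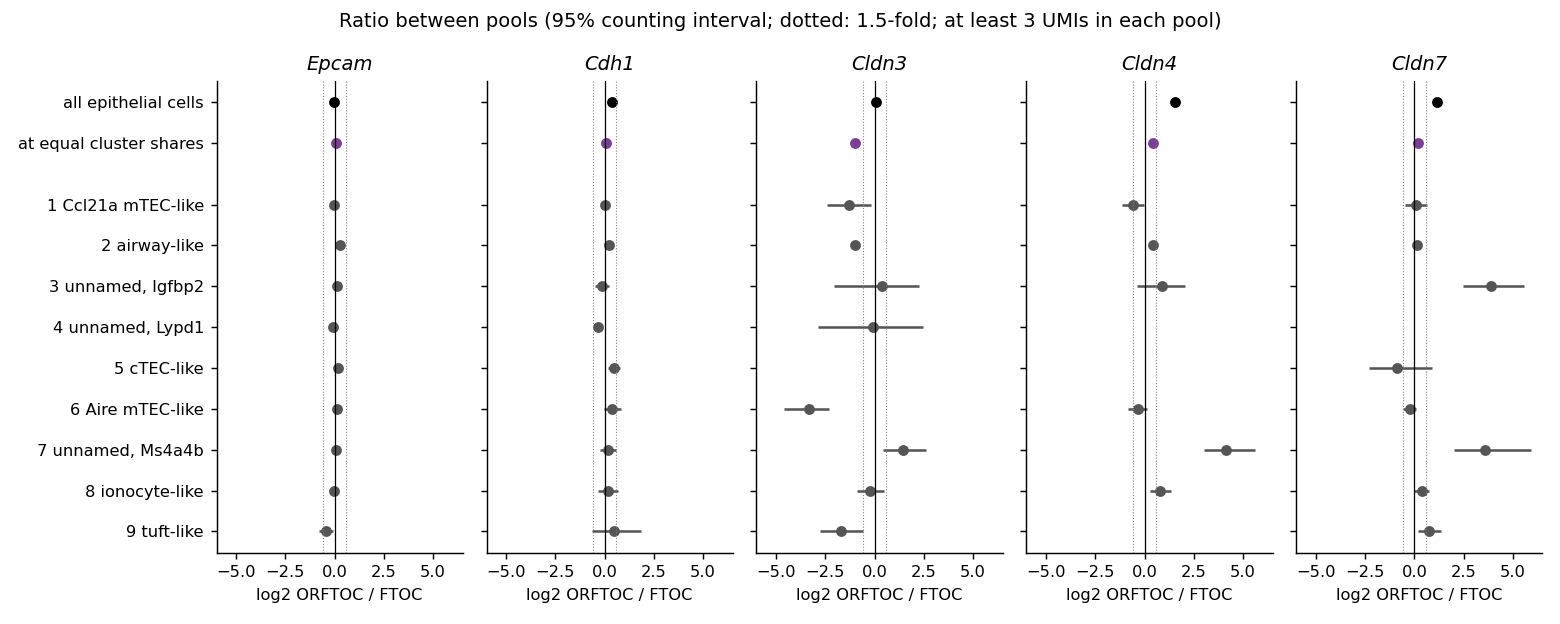
Log2 ratio of ORFTOC over FTOC for 5 of the genes (Cldn1 left out as sparse) over all epithelial cells, at equal cluster shares and within clusters, with 95% counting intervals. The ratio of Cldn4 went from 1.54 over all cells to 0.44 at equal shares, and that of Cldn3 from 0.09 to -0.98.

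Within the airway-like cluster, Cldn3 was at 325 CPM in ORFTOC and 651 CPM in FTOC (log2 -1.003). Of the genes that reached 50 CPM in either pool of this cluster, 5.15% were 1.5-fold lower and 5.85% higher. A Cldn3 UMI was present in 70.2% of ORFTOC and 94.3% of FTOC airway-like cells, with a median of 2 and 6 UMIs per cell, and after thinning each cell to 3000 UMIs in 45.9% and 76.2%. Cldn4 in the same cells went the other way, at 1041 and 777 CPM (0.42), and was detected in 91.4% and 81.9% of cells. Cldn7 there was at 529 and 484 CPM (0.13), Epcam at 1653 and 1356 CPM (0.29) and Cdh1 at 418 and 360 CPM (0.22). Cldn3 and Cldn4, divergent neighbours on chromosome 5, thus had opposite signs between the pools in the cluster that held most of their RNA; the difference was not tested.

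In the Aire mTEC-like cluster, Cldn3 was at 12.2 CPM in ORFTOC and 124 CPM in FTOC (-3.34; 8 and 170 UMIs), with a UMI in 16.7% and 45.3% of cells, where 8.59% of genes were 1.5-fold lower and 9.99% higher. Cldn4 in these cells was at 85.6 and 109 CPM (-0.35) and Cldn7 at 168 and 198 CPM. In the ionocyte-like cluster Cldn3 was at 131 and 152 CPM (-0.22), Cldn4 at 347 and 200 CPM (0.80) and Cldn7 at 508 and 394 CPM. In the tuft-like cluster, with 21 ORFTOC and only 4 FTOC cells, Cldn3 was at 71.9 and 236 CPM and Cldn7 at 958 and 571 CPM. Here 11.9% of genes were 1.5-fold higher and 29.9% lower, and in the ionocyte-like cluster 16.3% and 17.0%. In the 4 FTOC tuft-like cells the floor of 3 counts stood above the 50 CPM limit of these shares. The tuft-like shares therefore depend on that floor and are a weak background for its values.

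Cluster 7 went against these directions for Cldn3 by summed UMIs, with 56.4 CPM in ORFTOC and 20.8 CPM in FTOC (1.44; 44 and 10 UMIs). With each cell weighted equally, cluster 7 averaged 65.2 and 59.8 CPM of Cldn3. Its Cldn4 stood at 222 and 12.5 CPM (4.15; 173 and 6 UMIs, of which 55 came from 1 ORFTOC cell, and 3.64 without it), and its Cldn7 at 75.7 and 6.24 CPM (3.60), where 9.81% of genes were higher and 9.73% lower. The summed level of thymocyte genes in this cluster is given above, and its part in these values was not tested. In the cTEC-like cluster Epcam was at 687 and 610 CPM (0.17) and Cdh1 at 267 and 191 CPM (0.48), both short of 1.5-fold, which 7.82% of genes passed upward and 7.14% downward. In the Ccl21a mTEC-like cluster Cdh1 was even, at 222 and 219 CPM (0.02), in a cluster where 3.67% of genes were higher and 2.45% lower. In cluster 4 Cdh1 was at 218 and 277 CPM (-0.35), beside 4.79% and 4.73% of genes. Cluster 3 held Cldn7 at 27.5 CPM in ORFTOC (16 UMIs, of which 11 came from 1 cell, and 9.05 CPM without it) and 1.84 CPM in FTOC (6 UMIs), beside 7.78% and 7.53% of genes.

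The claudins were also counted together in single cells. Without thinning, 67.4% of epithelial cells held no UMI of Cldn3, Cldn4 or Cldn7 and 15.6% held all 3 (345 cells). All 3 were seen in 19.1% of ORFTOC and 11.2% of FTOC epithelial cells, and none in 60.9% and 75.8%. In the airway-like cluster 63.7% of cells (281 of 441) held all 3 and 1.13% none, whereas 98.6% of cells of cluster 4 held none. After thinning to 3000 UMIs, which 2156 of the 2207 epithelial and 428 of the 441 airway-like cells reached, Cldn3 and Cldn4 were both detected in 9.28% of epithelial cells, where the product of their shares was 2.46%. Cldn4 and Cldn7 were both detected in 12.01% (product 3.52%) and Cldn3 and Cldn7 in 8.998% (product 2.49%). Inside the airway-like cluster the joint shares lay at the products, 40.9% against 40.4% for Cldn3 and Cldn4 and 51.6% against 51.6% for Cldn4 and Cldn7, with 38.1% against 35.9% for Cldn3 and Cldn7. The Aire mTEC-like cells held Cldn3 and Cldn4 together in 6.06% (2.26 to 12.7; product 3.26%). In the Ccl21a mTEC-like cluster, where these UMIs were rare, Cldn4 and Cldn7 were both in 0.679% of cells (0.185 to 1.73; product 0.0623%) and Cldn3 and Cldn7 in 0.509% (0.105 to 1.48; product 0.0311%), that is in 4 and 3 cells.

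Across 17 profiles of cluster by pool with at least 10 cells, the genes closest to each member were ranked by Pearson r of log2(CPM + 10) among 3201 genes with at least 50 CPM. These profiles come from 1 library and share its free RNA, so r is a description. Cldn4 was the gene closest to Cldn3 (0.94), ahead of Depp1 (0.91) and Afdn (0.90), which encodes the junction protein afadin. The genes closest to Cldn4 were Cldn3 (0.94), Anxa1 (0.93) and Cldn7 (0.91). Cldn7 had Rab25 (0.96), an epithelial small GTPase of membrane traffic, then Tspan13 (0.94) and Cystm1 (0.93), and its r with Cldn3 was 0.87. For Cdh1 these were Pkp4 (0.92), a catenin relative found at cell junctions, Ddx60 (0.89) and Irf7 (0.89), both known as interferon-induced genes. For Epcam they were Ncstn (0.88), a subunit of gamma-secretase, Tmed10 (0.82) and Meis2 (0.81), and for Cldn1 Clu (0.89), Reg3g (0.86) and Pml (0.85). Epcam had an r of 0.18 to 0.42 with the other 5 members and Cdh1 an r of 0.17 to 0.40, and Cldn1 had 0.38 with Cldn7.

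The 6 genes were then set beside a list of 98 genes, called junction genes here, of which 63 reached 10 CPM in either pool. The list also holds EpCAM partners and 12 epithelial and 6 mesenchymal regulators. Of the 63, 19 were at least 1.5-fold higher and 6 lower in ORFTOC, with a median log2 ratio of 0.26 against 0.0066 over the 9532 genes, of which 7.85% were higher and 5.92% lower. Without the members, 17 of 58 were higher and 6 lower (median 0.25). These pool ratios are over all epithelial cells, of which 27.1% in ORFTOC and 10.9% in FTOC were airway-like. The list was not counted at equal cluster shares, so its pool counts cannot be told apart from the make-up of the pools. In the airway-like cluster 42 of the 63 genes were higher and 10 lower (median 1.03 against -0.10), where 17.8% and 20.8% of all genes were, and in the cTEC-like cluster 5 were higher and 36 lower (median -0.89 against -0.01), where 13.0% and 16.1% were. The number lower between the pools was thus near, and the number lower in the airway-like cluster under, the share of all genes.

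The same shares of all genes stand behind the counts by family, which are small, and the pool ratios are again over all epithelial cells. Of 7 claudins counted, Cldn3, Cldn4 and Cldn7 among them, 5 were higher in ORFTOC (median 0.84, 7.85% of all genes), and all 7 were higher in the airway-like (17.8%) and lower in the cTEC-like cluster (16.1%). Of 15 other tight junction genes 6 were higher in ORFTOC and 13 in the airway-like cluster, with the adhesion receptor gene Cxadr (1.56) and the scaffold gene Tjp1 (1.16) as examples of airway-like log2 ratios. Of 8 cadherin and catenin genes 0 were higher and 2 lower in ORFTOC (5.92% of all genes were lower). Cdh3, which encodes P-cadherin, had an airway-like ratio of -2.87 where Cdh1 had 0.94, and Ctnnb1, encoding beta-catenin, had a pool ratio of -0.06. The nectin gene Nectin1 was lower in the airway-like cluster (-2.04) and higher in the cTEC-like cluster (1.01), and afadin's Afdn had 1.86 and -0.75. Of 8 desmosome genes 1 was higher in ORFTOC, and Dsp, encoding desmoplakin, was opposite to the claudins, at -1.38 in the airway-like and 1.18 in the cTEC-like cluster.

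Among the genes of EpCAM partners, St14, encoding the protease matriptase, which can cleave EpCAM, had a pool ratio of 0.80, and its inhibitor genes Spint1 and Spint2 had 0.74 and 0.28. Cd44, a hyaluronan receptor gene, was lower in ORFTOC (-0.68). Among regulators, the ETS factor gene Ehf was higher in ORFTOC (1.204) and in the airway-like cluster (2.84). Trp63, the basal epithelial regulator, and Snai2, encoding Slug, were at -0.55 and -0.91 between the pools and at -4.92 and -5.02 in the airway-like cluster.

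**Figure D4:**
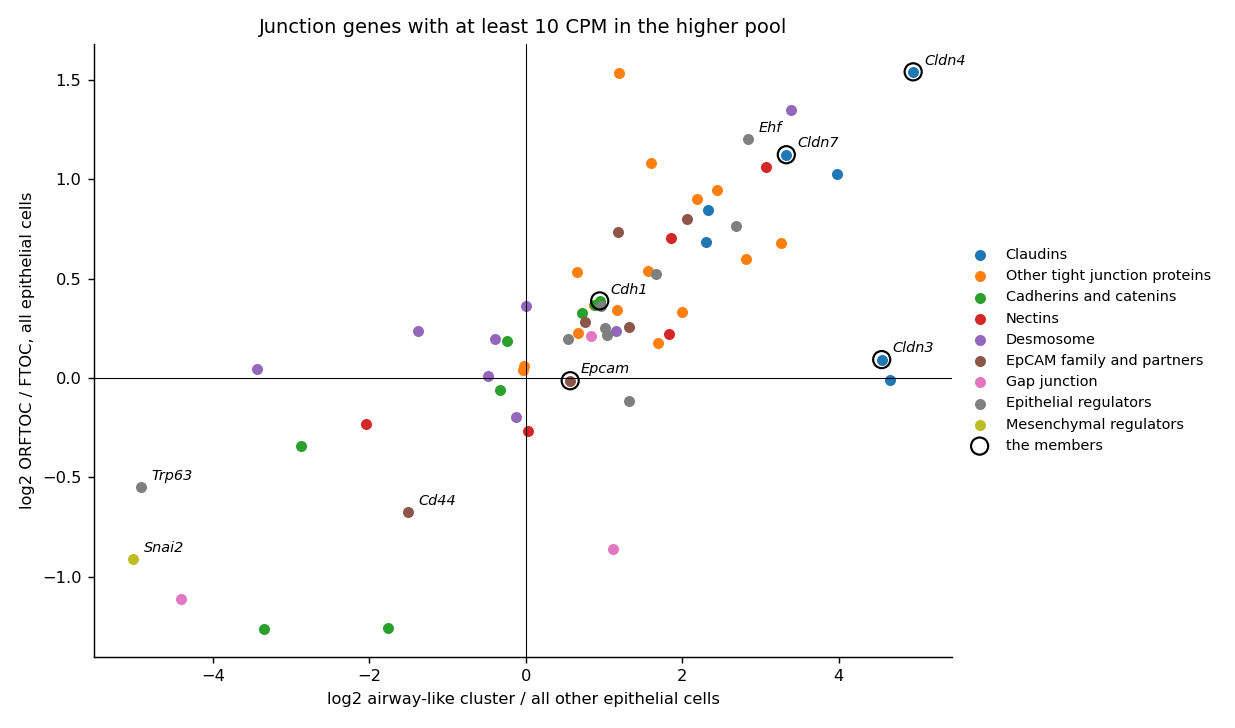
Each point is a gene of the junction list, partners and regulators included, that reached 10 CPM in either pool (1 gene not shown). It is placed by its log2 ratio of the airway-like cluster over other epithelial cells (horizontal) and of ORFTOC over FTOC (vertical). Cldn4 (4.95, 1.54) lies at the upper right, and Cldn3 (4.55, 0.09) lies at the right with a pool ratio near 0.

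Outside the cells grouped as epithelial, 1 immune cluster carried Epcam, Cdh1, Cldn3, Cldn4 and Cldn7 together at epithelial levels. Single genes also stood out in other immune clusters, Cldn1 among them, as described below. Levels were read against free RNA. Over all immune cells Epcam was at 33.8 CPM, Cdh1 at 12.9 CPM and each claudin at 1.94 to 6.75 CPM, and over the 261 mesenchymal cells Epcam was at 17.7 CPM and Cldn3 at 0 CPM. Immune cluster 12 (125 cells), described last, held 67.6% of the immune Epcam UMIs, 93.1% of Cldn3, 91.4% of Cldn7, 40.5% of Cldn4 and 28.1% of Cdh1 UMIs. Without it the other 5799 immune cells had 11.2 CPM of Epcam, 9.53 CPM of Cdh1, 4.12 CPM of Cldn4, 0.533 CPM of Cldn7 and 0.140 CPM of Cldn3. Free RNA held 243 CPM of Epcam and 56.8 CPM of Cdh1. In the immune clusters with CD4 and CD8 double-positive (DP) thymocyte markers Epcam had 23.1 UMIs per 100 UMIs of Krt8 and Krt18, near the 17.6 of free RNA.

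Cldn4 stood apart in the DP-like thymocytes. It had 117 UMIs in 2124 cells, or 30.6 CPM (25.3 to 36.7), in 5.08% of cells with at most 3 UMIs per cell. That is 34.7 Cldn4 UMIs per 100 keratin UMIs, beside 1.45 in free RNA, so the 2 sets of UMIs were not in the ratio of free RNA. The level was 24.0 CPM in ORFTOC and 33.2 CPM in FTOC. DP-like cells with a Cldn4 UMI held a keratin UMI in 13.9% and those without one in 13.5%. In mature T-like cells Cldn4 had 5 UMIs in 1000 cells, in 0.5% of cells at a median of 7357.5 UMIs, while the DP-like cells had a median of 1622 UMIs. After thinning to 1000 UMIs a Cldn4 UMI was left in 3.17% of DP-like and 0.2% of mature T-like cells, with 2018 of 2124 and 1000 of 1000 cells deep enough. In the NK or innate lymphoid-like cluster 3 it had 0 UMIs in 575 cells, which allows a UMI in up to 0.522% of such cells.

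Cdh1 was likewise above its free RNA ratio in another immune group. In the NK or innate lymphoid-like cluster 4, led by Gzmc, Xcl1 and Klra5, it had 140 UMIs in 20.7% of 507 cells (21.6 CPM; 22.4 in ORFTOC and 20.6 in FTOC), with 146 UMIs per 100 keratin UMIs beside 4.12 in free RNA. Keratin UMIs were in 16.2% of its cells with a Cdh1 UMI and in 15.2% of those without. The mature T-like cluster had 10.2 CPM of Cdh1 (37.3 per 100), and the NK or innate lymphoid-like cluster 3 had 5 UMIs in 575 cells. Cldn1 was seen in 12 of 187 macrophage-like cells at 17.0 CPM, and at 19.0 CPM without cells of 2 or more keratin UMIs. In a small cluster of 29 cells led by Fscn1, Ccl22 and Ccl17, Cldn1 was at 46.9 CPM (12 UMIs in 4 cells, all of ORFTOC). Its highest epithelial level, in the airway-like cluster, was 22.0 CPM. Epcam in the same small cluster was at 102 CPM (66.4 to 149), in 12 of the 29 cells.

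Immune cluster 12, which was unnamed and led by Pth, Chga and Mt3 (125 cells), carried epithelial levels of Epcam (887 CPM), Cdh1 (141 CPM), Cldn3 (71.1 CPM), Cldn4 (106 CPM) and Cldn7 (213 CPM). Pth encodes parathyroid hormone. All 5 were lower in ORFTOC than in FTOC in this cluster, Epcam at 634 and 1042 CPM, Cdh1 at 97.7 and 168 CPM, Cldn3 at 11.2 and 108 CPM (4 and 63 UMIs), Cldn4 at 47.5 and 142 CPM and Cldn7 at 83.8 and 292 CPM. Here 15.2% of genes that reached 50 CPM in either pool were 1.5-fold lower and 17.6% higher. Pth and Chga are both in the parathyroid marker list, which was applied to epithelial clusters only. The summed level of Cd3e, Cd3d, Cd8a and Ptprc in immune cluster 12 was 877 CPM. Its cells were grouped as immune in the clustering of all cells, so they are in none of the epithelial levels, shares or ratios. Their cell type was not tested.

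**Figure D5:**
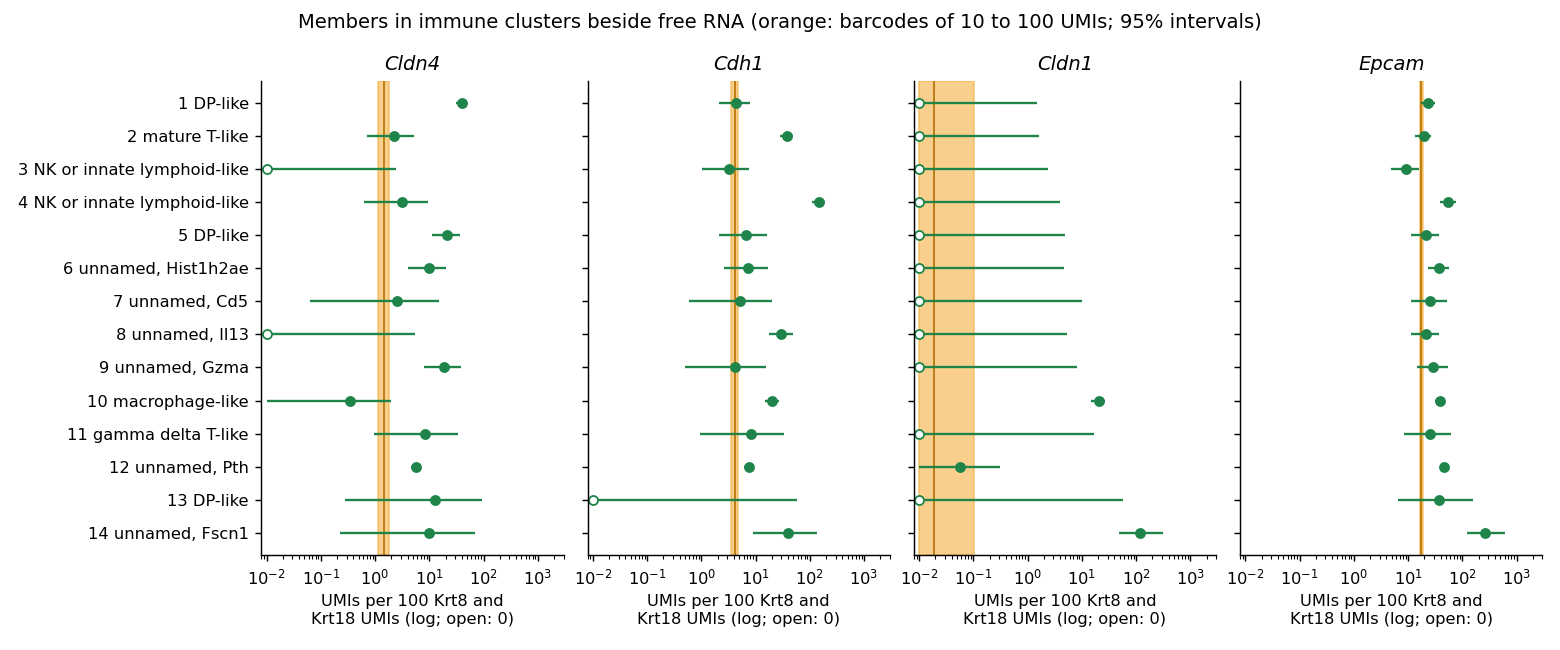
UMIs of Cldn4, Cdh1, Cldn1 and Epcam per 100 Krt8 and Krt18 UMIs in each immune cluster (green, log axis, 95% intervals) and in free RNA (orange band). Cldn4 in DP-like thymocytes (34.7 against 1.45 over the DP-like clusters) and Cdh1 in the NK or innate lymphoid-like cluster 4 (146 against 4.12) lay above free RNA.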

How the data were processed

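The deposited values are raw UMI counts per gene and barcode from 5′ libraries, which the authors made by read alignment and counting. Per the labels' processing notes they used Cell Ranger 6.1.2, mm10 and Seurat 4.2.0, while the matrix header names Cell Ranger version 4. The matrix held 705161 barcodes and 103984163 UMIs. Barcodes with at least 600 genes (10910) and 0.4 to 10% mitochondrial UMIs (10245) were kept. A hashtag was called positive above the 0.99 quantile of its background, which gave 8983 single-pool cells, 590 between-pool doublets and 672 negatives. A further 591 cells were removed as doublets within a pool, by the share of between-pool doublets among 50 neighbours, leaving 8392.

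Cells were clustered in R 4.3.3 with Seurat 5.3.0 and sctransform 0.4.2 (18 components, resolution 0.4), with cell cycle scores regressed out and junction genes left out of the variable genes. A cluster was named by its highest mean log2 marker fold, with at least 3 markers in 5% of its cells and 1 own marker in its 10 leading genes and no other class with more; these limits were set after leading genes were seen. Sums per cluster and pool were divided by total UMIs (CPM). Intervals are exact Poisson for levels, Clopper-Pearson for shares and exact binomial for ratios, at 95%. In ratios counts under 3 were set to 3, and a member or listed junction gene got no ratio where both counts were at most 3. Shares over all genes, other than at equal cluster shares, kept such genes with both counts at 3. Where no cell held a UMI, the limit given is 3 counts of the cells, which bounds cells with a UMI and not cells that express the gene. The intervals cover counting error only, and the depth of 29276985 to 42756137 UMIs per pool limits the sparse genes. With 1 sample a pool, no test was made, and a gene was called at 1.5-fold. Equal-share ratios weighted clusters by the cells of both pools. TMM factors came from edgeR 4.0.16. Sums and intervals were computed with pandas 2.3.3, scipy 1.17.1 and numpy 2.4.6 under Python 3.11.15. The calculation was tested on simulated data. Coordinates are of GRCm38 and sequences of RefSeq GRCm38.p6, and 5 of 6 members had a promoter entry.

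The members and lists were chosen with earlier results of these data known. Named genes were the 6 members, junction genes of at least 50 CPM over epithelial cells and the 3 highest and 3 lowest pool ratios of these, the 3 genes most like each member, and the 3 leading genes of each epithelial cluster; the immune clusters, Fscn1, Ccl22, Ccl17, Pth, Chga, Mt3, Gzmc, Xcl1 and Klra5 were named after values were seen. Alternatives were another hashtag rule, doublets kept, other filters, clustering settings, scalings and free RNA subtraction. One junction gene that this rule names is not reported here.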

Additional observations from a re-analysis of the deposited data

Results flagged for a closer look

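By summed UMIs, the pool ratio of Cldn3 differed in sign between clusters, beyond its counting intervals, and that of Cldn4 did so only with 1 cell included. No difference between clusters was tested, since each pool is 1 sample. Cldn3 was lower in ORFTOC than in FTOC in the Aire mTEC-like cluster (log2 -3.34) and the tuft-like cluster (-1.72, with 4 FTOC cells). It was also lower in the Ccl21a mTEC-like cluster (-1.28) and the airway-like cluster (-1.003). Cldn3 was higher in cluster 7, led by thymocyte genes (1.44). With each cell of cluster 7 weighted equally, its Cldn3 means were 65.2 CPM in ORFTOC and 59.8 CPM in FTOC, so this difference depended on how cells were weighted. In the Ccl21a mTEC-like cluster both Cldn3 values, 2.46 and 5.97 CPM, were low, beside 11.8 CPM in the make-up of free RNA, which sets no floor for cells.

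Cldn4 was higher in ORFTOC in cluster 7 (4.15) and in the ionocyte-like cluster (0.80) and lower in the Ccl21a mTEC-like cluster (-0.59). In the last, Cldn4 was at 11.7 CPM in ORFTOC and 17.6 CPM in FTOC, beside 20.1 CPM in the make-up of free RNA. There 1 FTOC cell held 35 of the 62 FTOC UMIs of Cldn4. Without that cell the ratio turned to 0.60 (-0.089 to 1.31), with 11.7 and 7.73 CPM.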

How the results depend on the processing

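No paired analysis was possible because each pool is 1 sample. The alternatives were run on the log2 ratios over all epithelial cells, at equal cluster shares and for the airway-like and cTEC-like clusters, and 0 called values changed sign. Assigning cells by the ratio of hashtag counts moved the ratio over all cells to 0.27 for Cdh1, 0.29 for Cldn1, -0.35 for Cldn3, 1.06 for Cldn4 and 0.42 for Cldn7, and left 1 member at least 1.5-fold higher. With doublets kept the ratio was -0.058 for Epcam, -0.030 for Cldn3, 1.37 for Cldn4 and 0.90 for Cldn7. TMM scaling gave 0.018 for Epcam, and thinning gave 0.29 for Cdh1, 1.69 for Cldn4 and 1.26 for Cldn7. Equal weight per cell gave 1.65 for Cldn4, and cells with Xist and no Y-linked UMI gave 1.65 for Cldn4 and -0.064 for Cldn3. Cldn7 was at 0.95 without cell cycle regression and 1.24 without cells holding a marker of another compartment, where 1 member was higher at equal shares. With no minimum CPM 13.8% of genes were lower, against 5.92%. The causes were not tested. Thinning, Xist cells and the removal of cluster 7, of immune cluster 12 or of single cells were chosen after seeing the data. At equal shares Cldn3 ranged from -1.23 to -0.95 and Cldn4 from 0.37 to 0.56, and the airway-like ratio ranged from 3.87 to 4.76 for Cldn3 and 4.39 to 5.33 for Cldn4. Depth limits Cldn1 most.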
